A study of Drosophila melanogaster with 2 samples.

Results

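The 32 small nuclear RNA (snRNA) genes of Drosophila melanogaster were examined among the 18164 genes annotated on the major chromosome arms. They were taken by their annotated biotype. By symbol, 6 of them are of RNA polymerase III type, namely snRNA:7SKa, snRNA:7SKb, snRNA:U6:96Aa, snRNA:U6:96Ab, snRNA:U6:96Ac and snRNA:U6atac. The other 26 comprise 5 U1, 6 U2, 3 U4 and 7 U5 genes and 1 gene each for U7, U11, U12, U4atac and LU. A gene was said to have a summit when the highest point of a listed region lay within 1 kb of its annotated start. The lists come from chromatin immunoprecipitation sequencing (ChIP-seq) of CG42726-eGFP, the CG42726 protein fused to green fluorescent protein, pulled down with an antibody to that tag. The material was whole embryos of 0 to 24 h from transgenic flies of strain CG42726-GFP. There was 1 group of 2 biological replicates and no second group was analysed here. Embryos of all ages in that span and all tissues were mixed, so where and when a region was bound cannot be told from these lists. What drives the tagged protein, and whether an untagged copy was also present, is not given in the sources used here, and the control named among the sources of the lists was not analysed here.

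The snRNAs are short, stable nuclear RNAs. U1 pairs with the 5' splice site and U2 with the branch point, while U4, U5 and U6 join as a tri-snRNP from which the catalytic core of the spliceosome is built. U11, U12, U4atac and U6atac serve the minor spliceosome, U7 guides 3' end processing of histone mRNAs, and 7SK RNA holds the elongation factor P-TEFb in an inactive state. Most snRNA genes are transcribed by RNA polymerase II, and those for U6, U6atac and 7SK by RNA polymerase III. In flies both kinds share a proximal sequence element, PSEA, bound by the snRNA activator complex, and a TATA box beside it marks the polymerase III kind.

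The bases just before the start are shown for all 6 genes of RNA polymerase III type, because 5 of them carry a TATA word close to the start. Each sequence is the 75 bases before the start on the gene's strand, from the RefSeq Release 6 assembly, which is dm6. The positions are snRNA:7SKa 3R:7474997-7475071 (minus strand), snRNA:U6:96Aa 3R:24556013-24556087 (plus strand), snRNA:U6:96Ab 3R:24556617-24556691 (plus strand), snRNA:U6:96Ac 3R:24557140-24557214 (plus strand), snRNA:U6atac 2L:8389649-8389723 (plus strand) and snRNA:7SKb 3R:23432794-23432868 (plus strand). The first block of capitals marks ATTCNCAA, a word shared by nearly all snRNA promoters, and the second marks TATAAA or TATATA, with overlapping copies run together.
snRNA:7SKa: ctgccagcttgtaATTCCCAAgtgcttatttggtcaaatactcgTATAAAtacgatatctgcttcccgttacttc
snRNA:U6:96Aa: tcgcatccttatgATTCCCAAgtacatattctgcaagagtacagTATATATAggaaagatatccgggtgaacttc
snRNA:U6:96Ab: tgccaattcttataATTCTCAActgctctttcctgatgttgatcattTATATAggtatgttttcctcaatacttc
snRNA:U6:96Ac: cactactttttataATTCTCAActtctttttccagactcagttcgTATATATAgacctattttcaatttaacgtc
snRNA:U6atac: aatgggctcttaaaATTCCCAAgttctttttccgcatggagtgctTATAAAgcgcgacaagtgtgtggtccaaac
snRNA:7SKb: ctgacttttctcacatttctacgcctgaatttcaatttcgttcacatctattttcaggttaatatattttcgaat

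The same 75 bases are shown for the 5 other snRNA genes with a summit within 250 bp of the start, so that they can be read against those of a copy of the same kind with none. They lie at snRNA:U1:95Ca 3R:23859631-23859705 (minus strand), snRNA:U1:21D 2L:901655-901729 (minus strand), snRNA:U2:34ABb 2L:13215764-13215838 (plus strand), snRNA:U4:39B 2L:21215179-21215253 (minus strand) and snRNA:U5:63BC 3L:3090726-3090800 (plus strand). Capitals mark ATTCNCAA.
snRNA:U1:95Ca: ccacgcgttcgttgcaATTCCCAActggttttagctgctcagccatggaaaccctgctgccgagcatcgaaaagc
snRNA:U1:21D: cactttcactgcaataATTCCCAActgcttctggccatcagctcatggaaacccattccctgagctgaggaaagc
snRNA:U2:34ABb: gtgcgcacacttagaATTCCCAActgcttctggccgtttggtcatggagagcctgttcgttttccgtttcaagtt
snRNA:U4:39B: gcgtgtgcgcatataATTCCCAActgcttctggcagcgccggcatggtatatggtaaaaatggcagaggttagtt
snRNA:U5:63BC: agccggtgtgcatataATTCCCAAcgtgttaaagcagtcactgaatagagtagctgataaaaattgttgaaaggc

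The copies without a summit, 1 for each kind, lie at snRNA:U1:95Cb 3R:23827795-23827869 (plus strand), snRNA:U2:34ABa 2L:13212117-13212191 (minus strand), snRNA:U4:38AB 2L:19810659-19810733 (plus strand) and snRNA:U5:38ABa 2L:19812075-19812149 (minus strand). They carry the same word at about the same place.
snRNA:U1:95Cb: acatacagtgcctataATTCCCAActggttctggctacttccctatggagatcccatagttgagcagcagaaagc
snRNA:U2:34ABa: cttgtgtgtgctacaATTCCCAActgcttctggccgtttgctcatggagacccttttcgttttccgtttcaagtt
snRNA:U4:38AB: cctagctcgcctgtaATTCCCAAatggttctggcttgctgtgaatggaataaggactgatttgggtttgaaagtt
snRNA:U5:38ABa: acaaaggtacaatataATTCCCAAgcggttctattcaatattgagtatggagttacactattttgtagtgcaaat

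Regions came in 4 thresholded lists, and each has a longer ranked list behind it. The conservative list, which compares the biological replicates, held 2752 regions, the pooled list 4044, the list of replicate 1 2803 and that of replicate 2 1629. The conservative and pooled lists both derive from the alignments of both replicates, so the 4 lists are not independent. The median signal of a list, the authors' own value for each region, was 102 in the conservative, 84.0 in the pooled, 62.3 in the replicate 1 and 59.6 in the replicate 2 list. The files hold no read counts, so depth is unknown, and signals are set against others of the same list only. With peak lists from 1 group, no difference was tested, and counts are given beside those over all annotated genes.

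In the conservative list 11 of the 32 snRNA genes (34.4%) had a summit within 1 kb, against 18.4% of all annotated genes. In the pooled list 10 of 32 (31.2%) had one, against 24.3% of all genes. In the list of replicate 1 the count was 9 of 32 (28.1%), against 19.6% of all genes, and in that of replicate 2 it was 8 of 32 (25.0%), against 11.7%. The share among snRNA genes was above that over all genes in each list, by a factor of 2.15 in replicate 2 and of 1.29 in the pooled list, the widest and the narrowest gap, and no test of this difference was made. With the window narrowed to 250 bp, 7 of 32 snRNA genes had a summit in the conservative list, against 13.4% of all genes. These 7 genes had one within 250 bp in all 4 lists, which rest on the same 2 replicates. They are snRNA:7SKa, snRNA:U6:96Ac, snRNA:U1:95Ca, snRNA:U1:21D, snRNA:U2:34ABb, snRNA:U4:39B and snRNA:U5:63BC. They hold 1 gene each for 7SK, U6, U2, U4 and U5 and 2 for U1, so all the RNAs of the major spliceosome were represented. U11, U12, U4atac and U6atac, each with 1 gene in the annotation, were not among them. The kinds that were represented have several genes each. With 13.4% of all genes having such a summit, the absence of these single genes is not read as a difference between the spliceosomes.

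Of the 6 genes of RNA polymerase III type, 4 (66.7%) had a summit within 1 kb in the conservative list. Of the 26 other snRNA genes 7 (26.9%) had one, and the share over all annotated genes was 18.4%. At 250 bp the counts were 2 of 6 and 5 of 26, against 13.4% of all genes. With so few genes of either type, the difference between the types was not tested. The 4 and 7 genes rest on 4 and 7 distinct summits, since 1 gene had 2 summits and a pair of genes shared 1. Signals of the strongest summit per gene ranged between 119 and 398 in the genes of RNA polymerase III type that had one, and between 29.3 and 213 in the others. The ranges overlap, and the 2 highest values, at snRNA:7SKa and at snRNA:U6:96Ac, belong to genes of RNA polymerase III type. However, 2 of the 4 genes of RNA polymerase III type reached the count through a summit near a transfer RNA (tRNA) gene or a neighbouring snRNA gene.

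**Figure D1:**
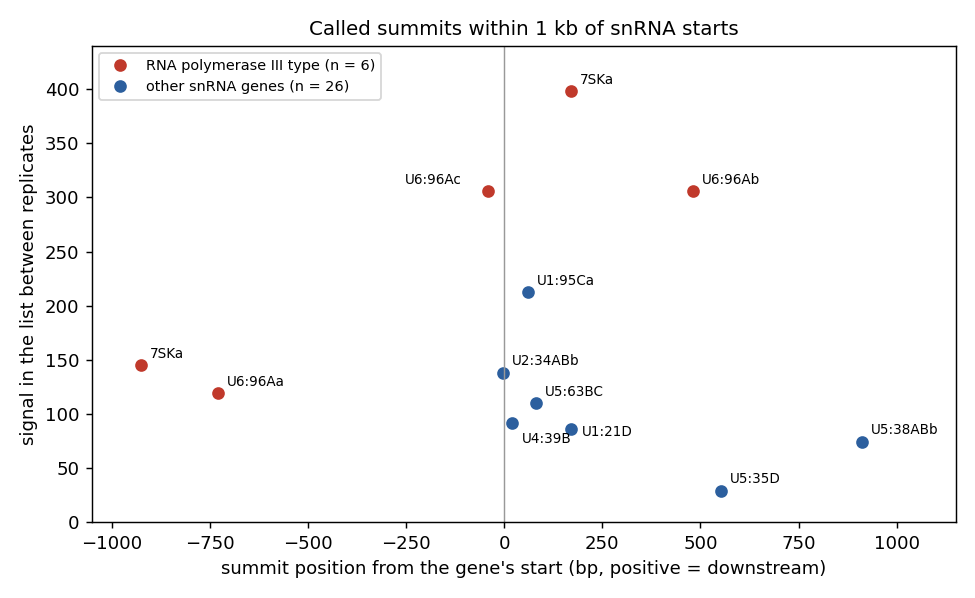
Called summits of the conservative list by their position from the start of the snRNA gene (x axis, bp, positive downstream) and signal (y axis). Each point is a summit paired with a gene within 1 kb, and the 1 summit shared by U6:96Ab and U6:96Ac appears as 2 points at 306. Those within 250 bp of a start lie between -42 and 170 bp.

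Among the genes of RNA polymerase III type, snRNA:7SKa (FBgn0065099, 3R:7474553-7474996, minus strand), a gene for the RNA of the P-TEFb inhibitory complex, had the strongest region. Its signal was 398 in the conservative list, rank 65 of 2752, with 254 in the list of replicate 1 and 124 in that of replicate 2. The summit lay 169 bp downstream of the start in the conservative list, 143 bp in replicate 1 and 235 bp in replicate 2. The region was thus high in both replicates and its summit was inside the 444 bp gene. The conservative region, 215 bp long, lay wholly within the gene and covered neither the start nor the promoter word. That of replicate 1 covered the start. In replicate 2 the strongest region did not, but a weaker region of signal 17.2, with its summit 23 bp downstream, covered it. A second conservative summit, of signal 145, lay 925 bp upstream of snRNA:7SKa and 54 bp from the start of tRNA:Val-CAC-2-4, a valine tRNA gene. This second summit had signals of 81.9 in replicate 1 and 60.0 in replicate 2.

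The second copy of 7SK in the annotation, snRNA:7SKb (FBgn0288809, 3R:23432869-23433272, plus strand), had no summit in any thresholded list. Its strongest region in the ranked lists had signals of 20.6 in the conservative, 13.5 in the replicate 1 and 8.15 in the replicate 2 ranked list. In the conservative ranked list 53.8% of regions had a higher signal. Aligned to snRNA:7SKa, the gene shares 48.9% of bases, close to the 48.8% shared by the 250 bases before the starts. This alignment thus does not show the RNAs to be more alike than those stretches. The gene lies within CG4374 and was the only snRNA gene of the 32 with no ATTCNCAA in the 100 bases before its start. It also had neither TATA word there.

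The 3 U6 genes, for the RNA at the catalytic core of the spliceosome, stand in a row at 96A on 3R with starts 604 and 523 bp apart and identical RNAs. The strongest region there had its summit 42 bp upstream of snRNA:U6:96Ac (FBgn0004190, 3R:24557215-24557321), with a signal of 306 and rank 126 of 2752. It had signals of 179 in replicate 1 and 122 in replicate 2, with the summit 27 and 46 bp upstream. The same summit lay 481 bp downstream of snRNA:U6:96Ab (FBgn0004189, 3R:24556692-24556798), beyond the end of that gene, and is the reason that gene was counted. A summit of its own, 16 bp upstream of snRNA:U6:96Ab, was found in the pooled list alone, with a signal of 38.1 and rank 3929 of 4044. The summit counted for snRNA:U6:96Aa (FBgn0004188, 3R:24556088-24556194) lay 729 bp upstream and 57 bp from tRNA:Asp-GTC-1-11, an aspartate tRNA gene, with a signal of 119 in the conservative list and 72.5 in replicate 1. In replicate 2 the strongest region within 1 kb of snRNA:U6:96Aa was ranked at 39.1 and did not enter the thresholded list. Thus 1 of the 3 U6 starts had a summit within 250 bp in both replicates, the last of the row. Neighbouring starts lie within the 200 to 800 size range of the sonicated chromatin, given in the labels without a unit. Whether weak signal at snRNA:U6:96Aa and snRNA:U6:96Ab reflects binding there or binding at a neighbour was not tested.

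The minor spliceosome gene snRNA:U6atac (FBgn0041717, 2L:8389724-8389820) had no summit in any thresholded list. Its strongest ranked regions had signals of 41.9 in the conservative, 15.7 in the replicate 1 and 23.2 in the replicate 2 ranked list. In the conservative ranked list the summit of that region lay 458 bp upstream, and 10.3% of regions had a higher signal. The gene nevertheless carries both ATTCNCAA and TATAAA, as do the bases before snRNA:7SKa.

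Among the other snRNA genes, snRNA:U1:95Ca (FBgn0004185, 3R:23859467-23859630, minus strand), for the RNA that recognises the 5' splice site, had the strongest region. Its signal was 213 in the conservative list, rank 283 of 2752, with 111 in replicate 1 and 96.9 in replicate 2. The summit lay 61 bp downstream of the start in the conservative list, 66 bp in replicate 1 and 56 bp in replicate 2, inside the 164 bp gene. Both replicate values were above the median of their lists. The nearest protein-coding start, that of Pli, was 30422 bp away. The other U1 gene with a summit, snRNA:U1:21D (FBgn0003916, 2L:901491-901654, minus strand), had 85.9 in the conservative list, 43.6 in replicate 1 and 44.7 in replicate 2. All 3 values were below the median of their lists, whereas in the pooled list 85.9 was above the median of 84.0. The conservative summit lay 170 bp downstream, just past the end of the gene, and its region covered neither the start nor the promoter word, whereas that of replicate 1 covered the start. In replicate 2 a second region with a signal of 4.07 had its summit 32 bp upstream.

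The U2 gene snRNA:U2:34ABb (FBgn0004192, 2L:13215839-13216030, plus strand), for the RNA that pairs with the branch point, had 138 in the conservative list, rank 786, with 81.9 in replicate 1 and 55.6 in replicate 2. The summit was within 7 bp of the start in each of these lists. The U5 gene snRNA:U5:63BC (FBgn0003938, 3L:3090801-3090923, plus strand), whose RNA contacts the exons at both splice sites, had 109.7 in the conservative list, 71.4 in replicate 1 and 51.4 in replicate 2, with summits 81, 81 and 5 bp downstream. The U4 gene snRNA:U4:39B (FBgn0003930, 2L:21215036-21215178, minus strand), whose RNA keeps U6 inactive by pairing with it, had 91.8 in the conservative list, 39.2 in replicate 1 and 57.1 in replicate 2. Its summits lay 21, 58 and 54 bp downstream. In the conservative list 28.5%, 44.5% and 58.8% of regions had a higher signal, in the order U2, U5 and U4. For snRNA:U4:39B the share was 92.9% in replicate 1, near the bottom of that list, and 54.5% in replicate 2. snRNA:U4:39B lies inside Atg18b on the same strand, and the other 6 of the 7 genes with a summit within 250 bp lie in no protein-coding gene.

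**Figure D2:**
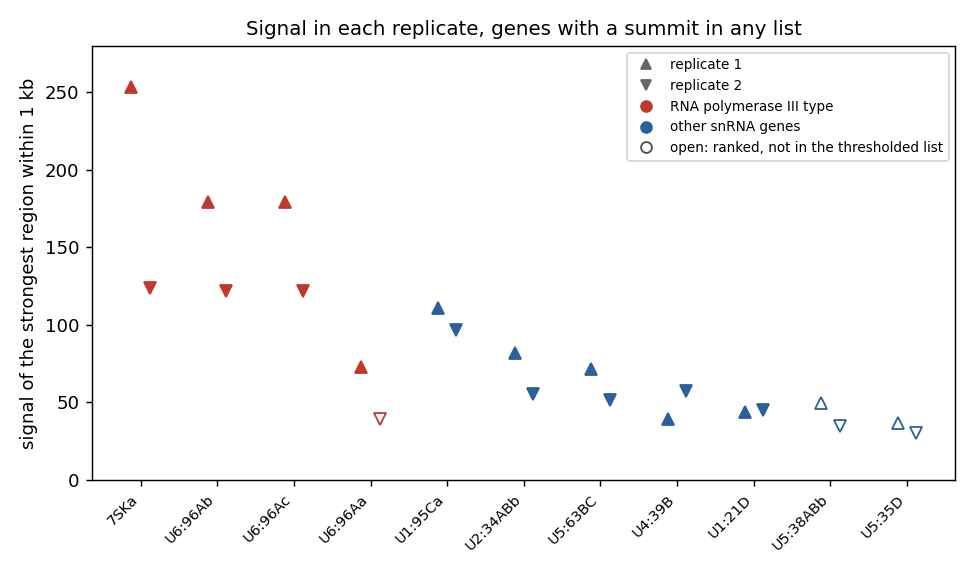
Signal of the strongest region within 1 kb (y axis) in replicate 1 and replicate 2 for the 11 snRNA genes with a summit in any thresholded list (x axis). Filled symbols are in that replicate's thresholded list, and the lists were made separately, so heights are read within a replicate. 7SKa is highest in both, at 254 and 124.

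For 2 further U5 genes the summit lay farther off. The summit counted for snRNA:U5:38ABb was 912 bp downstream with a signal of 74.4 in the conservative and pooled lists, and no other annotated start was nearer to it. The strongest ranked region there reached 49.4 in replicate 1 and 34.5 in replicate 2, and neither replicate's thresholded list held it. The summit counted for snRNA:U5:35D was 553 bp downstream and 51 bp from ND-B17, a gene for a subunit of mitochondrial complex I. Its signal of 29.3, at rank 2692 of 2752, was the lowest of the 11 summits, and it was in the conservative list alone. Of the 11 distinct conservative summits, 8 had an snRNA start as the nearest start of any annotated gene.

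The position of the summit within these 7 regions varied. Summits of the same gene in the 2 replicates lay 4 bp apart at snRNA:U2:34ABb and snRNA:U4:39B, 10 bp at snRNA:U1:95Ca and 19 bp at snRNA:U6:96Ac. They lay 64 bp apart at snRNA:U1:21D, 76 bp at snRNA:U5:63BC and 92 bp at snRNA:7SKa. In the conservative list the summit was upstream of the start at snRNA:U6:96Ac and snRNA:U2:34ABb and downstream of it at the other 5. From the first base of ATTCNCAA to the summit the distance was between 19 bp, at snRNA:U6:96Ac, and 231 bp, at snRNA:7SKa. Conservative regions of 5 of the 7 covered both the start and the word.

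The other 21 snRNA genes had no summit in any thresholded list. They are snRNA:7SKb and snRNA:U6atac of RNA polymerase III type, and snRNA:LU, snRNA:U11, snRNA:U12, snRNA:U4atac, snRNA:U7, snRNA:U1:82Eb, snRNA:U1:95Cb, snRNA:U1:95Cc, snRNA:U2:14B, snRNA:U2:34ABa, snRNA:U2:34ABc, snRNA:U2:38ABa, snRNA:U2:38ABb, snRNA:U4:25F, snRNA:U4:38AB, snRNA:U5:14B, snRNA:U5:23D, snRNA:U5:34A and snRNA:U5:38ABa. All 6 kinds with 1 gene each, U6atac, U4atac, U7, U11, U12 and LU, are in this set, and all 11 genes with a summit belong to the 6 kinds with several genes. With 18.4% of all genes having a summit in the conservative list, 6 single genes are too few to read this as a trait of such kinds. Each of the 21 had some region within 1 kb in the conservative ranked list. The strongest one per gene had a signal between 17.3 and 62.3 with a median of 34.4, against between 29.3 and 398 with a median of 119 at the 11 genes with a summit. The signal ranges of the 2 sets overlap through snRNA:U5:35D alone. The median share of ranked regions with a higher signal was 19.7% over the 21 genes and 0.793% over the 11. The sets were split by whether such regions entered a thresholded list, so these gaps are largely built in and are not a separate result.

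For 8 of the 21 the strongest region of the conservative ranked list had its summit within 250 bp of the start. They are snRNA:LU, snRNA:U11, snRNA:U12, snRNA:U1:82Eb, snRNA:U1:95Cb, snRNA:U2:38ABa, snRNA:U4:25F and snRNA:U5:38ABa. That ranked list holds 140257 regions, and the matching share over all genes is not given here, so the count is not read as a result. At snRNA:U4:25F the summit lay 199 bp upstream, and 56.9% of regions had a higher signal. snRNA:LU had 51.8 in the conservative ranked list, 35 bp downstream, with 32.9 in replicate 1 and 15.8 in replicate 2. snRNA:U1:82Eb had 48.9 in the conservative ranked list, with 40.5 in replicate 1 and 5.57 in replicate 2. Its place differed between the replicates' ranked lists, with 2.68% of regions above it in replicate 1 and 90.5% in replicate 2. The strongest of the 21, snRNA:U2:34ABa, had 62.3 in the conservative ranked list, but that summit lay 910 bp downstream. A region's reproducibility value, −log10 of the irreproducible discovery rate (IDR), had to exceed 2 to enter a thresholded list. In the conservative ranked list it reached 1.65 at most over the strongest regions of the 21 genes, at snRNA:U2:34ABa, whose region stood at 1.91 in the pooled ranked list. The region of snRNA:U1:82Eb stood at 1.89 in the ranked list of replicate 1, so both came near the limit in 1 list. The pairs snRNA:U2:14B and snRNA:U5:14B, snRNA:U2:34ABc and snRNA:U5:34A, and snRNA:U2:38ABb and snRNA:U5:38ABa each share their strongest ranked region, so the 21 genes do not stand for 21 separate regions. In the ranked list of replicate 1, snRNA:U2:38ABb and snRNA:U5:38ABa had no region within 1 kb.

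**Figure D3:**
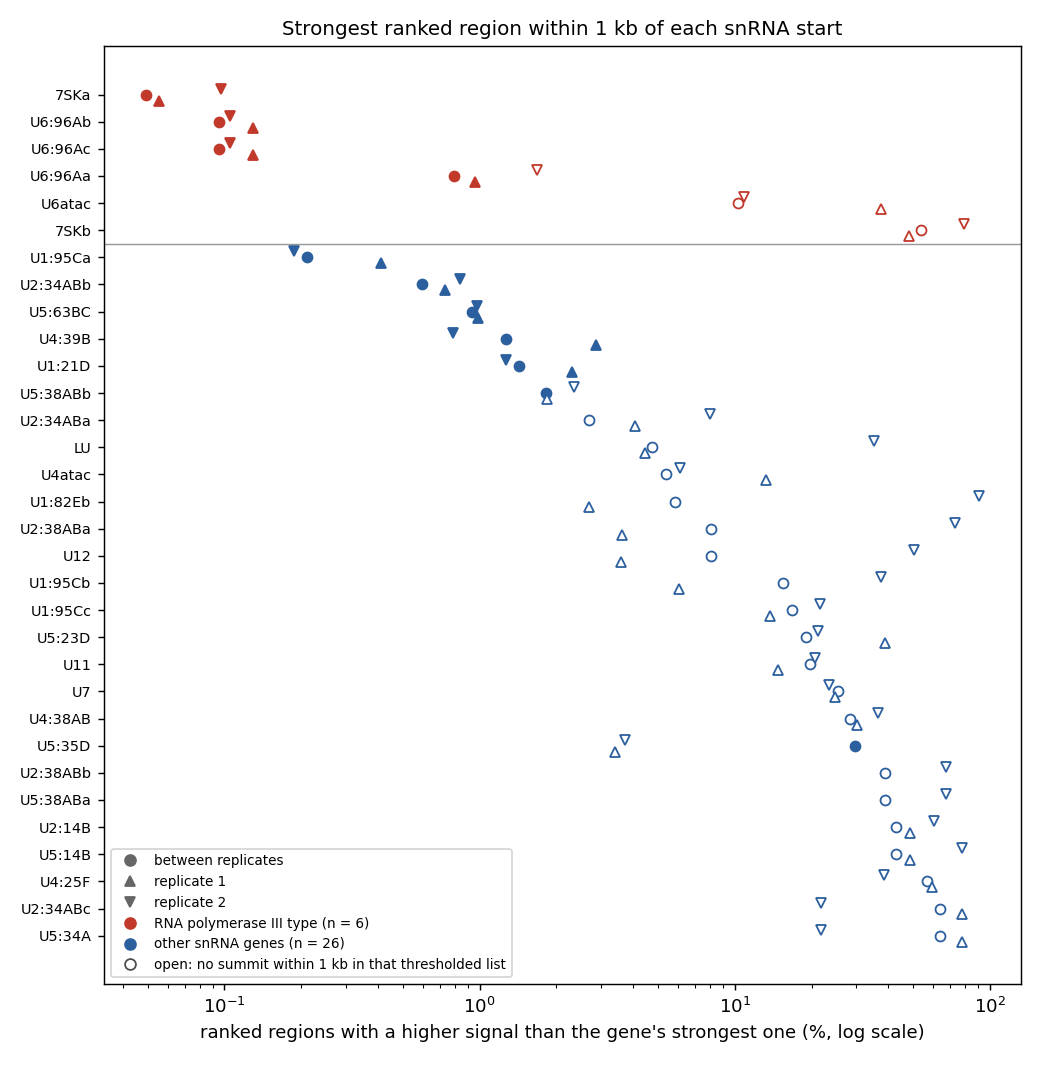
Share of regions in a ranked list with a higher signal than the gene's strongest region within 1 kb (x axis, %, log scale) for each of the 32 snRNA genes (rows, genes of RNA polymerase III type above the line). Circles are the conservative list and triangles the replicates, filled where the gene had a summit in the thresholded list. Values run between 0.0492% for 7SKa and 63.7% for U2:34ABc and U5:34A in the conservative list.

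Copies of the same RNA differed in their regions. The 5 U1 genes share between 98.2% and 100% of RNA bases, and the RNAs of snRNA:U1:95Ca, snRNA:U1:21D and snRNA:U1:95Cb are the same. Their strongest conservative ranked regions had signals of 213, 85.9 and 37.2 in that order. The 6 U2 genes share at least 98.4% of RNA bases, and snRNA:U2:34ABb and snRNA:U2:34ABc, which have identical RNAs, had 138 and 17.3, the second at a summit 989 bp upstream. In the pooled ranked list, where snRNA:U2:34ABb again had 138, the strongest region of snRNA:U2:34ABc had 41.0 at 361 bp upstream. Copies of U1, U4, U5 and U6 share no more than 60.1% of the 250 bases before the start, and the most alike U2 pair shares 81.7%. Of the windows of 50 bases lying wholly within the 250 bases before the start, 100% were found once in the genome for 30 of the 32 genes, and 97.5% for snRNA:U2:38ABa and snRNA:U2:38ABb. Within 250 bp to either side of the start the share of windows found once had a median of 85.8% over the 7 genes with a summit there and 90.2% over the other 25. How the authors treated reads that match several copies is not given in the sources used here, and its part in the signals over the genes themselves was not tested.

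The promoter words were counted in the 100 bases before the start on the gene's strand, over the snRNA genes and over all 18164 genes. TTCNCAACT, a stretch of the proximal element, was found in 17 of 32 snRNA genes, against 0.319% of all genes. On either strand it was also found in 17, against 0.551%. It was in 5 of the 7 genes with a summit within 250 bp and in 12 of the other 25. The most frequent word of 8 bases among the members was ATTCCCAA, found in 26 of 32. Its wider form ATTCNCAA, chosen after the frequent words were seen and overlapping TTCNCAACT, was found in 31 of 32, against 1.25% of all genes, and on either strand in 31, against 2.11%. It began between 65 and 56 bases before the start, with a median of 59. It was in all 7 genes with a summit within 250 bp and in 24 of the 25 without, so the word was present whether or not a region was called.

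In this stretch and on the gene's strand the TATA words differed between the types. At least 1 of them was found in 5 of the 6 genes of RNA polymerase III type and in 0 of the 26 other snRNA genes, against 20.2% of all genes. In those 5 genes the word began between 31 and 28 bases before the start. It was in 2 genes with a summit within 250 bp, snRNA:7SKa and snRNA:U6:96Ac, and in 3 without, snRNA:U6:96Aa, snRNA:U6:96Ab and snRNA:U6atac. When the opposite strand was searched too, at least 1 was found in 5 of the 6 genes of RNA polymerase III type and in 1 of the 26 others, against 24.1% of all genes. In a wider stretch, 250 bases before to 50 after the start, the counts were 5 of 6 and 9 of 26, against 43.5% of all genes. A match of letters is not a bound site, and a missing match covers only these letters in this stretch.

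**Figure D4:**
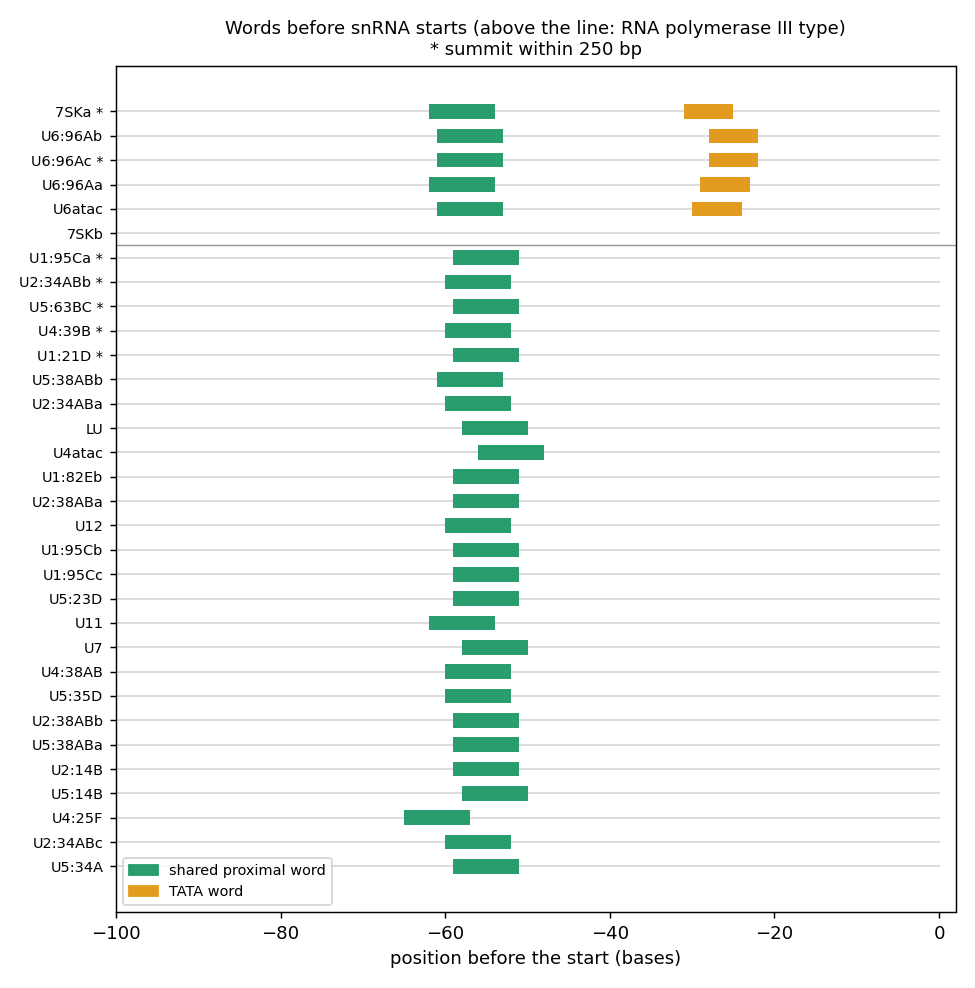
Position of the shared proximal word (green) and of a TATA word (orange) in the 100 bases before the start (x axis) of the 32 snRNA genes (rows, genes of RNA polymerase III type above the line, an asterisk for a conservative summit within 250 bp), on the gene's strand. The green word is present in 31 rows and the orange word in 5, all above the line.

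Words of other promoter and gene kinds were looked for in the same 100 bases. TATCGATA, the element bound by DREF, was found in 0 of 32, against 4.92% of all genes. GAGAGAG, the repeat bound by the Trl protein, was found in 0 of 32, against 1.19%. GTTCGANNC, the core of the tRNA B box, was found in 0 of 32, against 0.518%, and none of these 3 was found on the opposite strand. The B box lies inside tRNA genes, so a search before the start cannot show whether one is present. All 3 words are rare over all genes, so 0 of 32 is near those shares and is not read as a result.

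The surroundings of the genes also varied. A protein-coding start lay within 1 kb of 1 of the 7 genes with a summit within 250 bp, snRNA:U2:34ABb, and of 4 of the 25 without. The gene lay inside a protein-coding gene in 1 of the 7 and in 15 of the 25. Another snRNA start lay within 1 kb in 1 of the 7 and in 10 of the 25. The association of these features with the regions was not tested.

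Beside other small RNA genes, the 11 of 32 snRNA genes (34.4%) lay between the tRNA genes and the small nucleolar RNA (snoRNA) genes. A summit within 1 kb was found in 178 of 290 tRNA genes (61.4%) and in 51 of 269 snoRNA genes (19.0%). Neighbouring genes share summits, so these rest on 137 and 41 distinct summits. The median distance of the nearest summit over the genes that had one was 169 bp for snRNA genes, 50 bp for tRNA genes and 619 bp for snoRNA genes. For other RNAs, the gene of RNase MRP RNA had a summit 3 bp from its start with a signal of 152. None was found at the 2 genes of 7SL RNA, the gene of RNase P RNA or the 96 genes of 5S ribosomal RNA. Only 10 of the 96 5S genes had any region within 1 kb in the conservative ranked list. Sequence windows found once in the genome were counted for snRNA genes only. How well reads can be placed at the other small RNA genes is unknown, so a missing summit there does not show that binding was absent. The differences between these kinds of genes were not tested.

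Genes for proteins that transcribe, process and assemble snRNAs were counted from a list of 41 symbols, of which 39 matched the annotation. In the conservative list 7 of the 39 (17.9%) had a summit within 1 kb, against 20.6% of protein-coding genes. In the pooled list 14 of the 39 (35.9%) had one, against 27.3% of protein-coding genes. In replicate 1 alone 12 (30.8%) had one, against 21.9%, and in replicate 2 alone 4 (10.3%), against 12.7%. The share was thus below that of protein-coding genes in 2 of the 4 lists and above it in the other 2, and no test of this was made. The 7 in the conservative list were Pbp49, a subunit of the snRNA activator complex, with a signal of 190 (nearer to the start of Pabp2), and La, which binds the 3' end of polymerase III transcripts, with 345 (nearer to RtGEF). IntS4 (115.5) and IntS6 (99.96) encode subunits of Integrator, which cuts snRNA 3' ends, and CycT (179) encodes the cyclin of P-TEFb. Tgs1 (118), at equal distance from moi, encodes the enzyme that hypermethylates the snRNA cap, and Smn (97.9) the core protein of the assembly complex. The 2 other snRNA activator subunits, Pbp45 and Pbp95, had none in the conservative list.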

How the data were processed

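ChIP-seq regions of 2 biological replicates were used, as deposited lists on dm6, per the labels. Neither the aligner nor the region caller is given in the sources used here. Signal is a value the authors deposited with each region, read here within its own list. The −log10 IDR of a region is a column of the deposited ranked lists, and the lowest value kept in each thresholded list was just above 2. In the conservative ranked list 2894 regions reached 2, while the thresholded list held 2752. Why the others were left out is not given in the sources used here. With no counts in the files, depth and precision are unknown. The labels call the replicates biological and say nothing else of separate collections.

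Genes came from the Ensembl annotation (release 115) and sequence from RefSeq Release 6, whose chromosome lengths were checked against it. A summit within 1 kb of any start counted, on either side. Identity between copies came from global alignment (Biopython 1.88; match 1, mismatch -1, gap opening -2, extension -0.5). The counting was tested on simulated data with planted summits. Python 3.11.15, numpy 2.4.6 and pandas 2.3.3 were used.

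Named genes were all genes of RNA polymerase III type, every other snRNA gene with a summit in any thresholded list, listed machinery genes with a summit in the conservative list, and the gene with the nearest start. The members and lists were chosen with earlier results of these data known. The 250 bp window as the mark of a region at the start, the word ATTCNCAA, the windows of 50 bases, the wider and both-strand counts of TATA words, the machinery counts beyond the conservative list, the promoters printed and the genes without a summit described singly were chosen after values were seen. No test was made, since there is 1 group of 2 replicates.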

Additional observations from a re-analysis of the deposited data

How the results depend on the processing

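No paired analysis was possible because there is 1 group. The main counts were 11 snRNA genes, 4 of RNA polymerase III type and 7 others, on 11 distinct summits, and every alternative but the 2 kb window, which added snRNA:U2:38ABa, kept only genes among these 11. At 250 bp there were 7 genes (2 of RNA polymerase III type) on 7 summits, at 500 bp 7 summits, and above the median signal 7 genes (3 others) on 7 summits. Counting a summit only for the nearest start left 2 genes of RNA polymerase III type. The median signal of the strongest summit, 119 in the main count, was 138 at 250 bp, 176 at 500 bp, 124 at 2 kb, 129 in the pooled list, 213 above the median signal, 124 by nearest start and 138 by region overlap, and between 77.0 and 81.9 with 1 replicate left out. The median distance, 169 bp, was 61 at 250 bp, 71 at 500 bp, 71 in the pooled list, 81 above the median signal and 71 by nearest start, and between 39 and 81 with 1 replicate left out. The share of all genes, 18.4%, was 10.9% above the median signal and between 11.7% and 19.6% with 1 replicate left out, the lower value without replicate 1. Leaving out a replicate meant taking the other's own list, whose signals are on their own scale. The window and list set which genes count, and the cause of other shifts was not tested. The 17 promoters with TTCNCAACT stayed 17 on both strands and up to 50 bases past the start. Without counts, how far depth limits the weaker regions is unknown.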
